A study of Mus musculus with 6 samples.

Results

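The 47 genes described here encode the machinery that licenses replication origins and runs the replication fork in mouse cells. They were taken by symbol from a list grouped into complexes, all 47 were matched to 1 gene identifier each among the 55471 genes of the count table, and all 47 passed the low-count filter that left 16562 genes for testing. RNA was sequenced from primary cortical neurons of CD1 mouse embryos (E14.5 to 15) that were grown for 11 days, transduced with lentivirus on day 6 and harvested on day 11. The 3 shControl libraries carry the genotype label WT and the 3 shOpa1 libraries the label Opa1 knock-down. Cultures of both groups had received 2 uM cytosine arabinoside (Ara-C), an inhibitor of DNA synthesis that acts against dividing cells. The labels call the libraries biological replicates without naming the litter or culture of each. How many hairpin sequences were used, and what share of cells took up virus, is not given in the sources used here, and p-values measure only the spread between these libraries.

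Before DNA is copied, the origin recognition complex (ORC) together with CDC6 and CDT1 loads the ring of MCM2 to MCM7 onto origins, a step called licensing. In S phase CDC45 and the GINS complex turn that ring into the active helicase, RPA coats the exposed single strand, polymerase alpha-primase lays down primers, the RFC loader places the PCNA clamp, polymerases delta and epsilon extend the strands, FEN1 and LIG1 join Okazaki fragments, and CAF-1 puts histones on the new DNA. E2F1 is a transcription factor, held back by the retinoblastoma protein, that many of these genes are known to depend on. Neurons leave the cell cycle before they mature, so in cortex these transcripts are usually read as marks of dividing progenitors or glia, although RPA, PCNA, RFC and the ligases also serve DNA repair.

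Library totals ran from 24676709 to 32961580 counts, and a member's count in 1 library ran from 7 (Mcm3) to 2389 (Rfc2). Opa1, the targeted mitochondrial fusion gene, had 202, 205 and 202 CPM in shControl and 10.2, 8.64 and 8.5 CPM in shOpa1, a log2 fold change of -4.48 ± 0.088, adjusted p = 2.09e-06, so each library matched its label. The replicate numbers pair the libraries: libraries with the same number deviated together from their group means. On the second principal component the replicate 3 libraries of the 2 groups lay at -29.4 and -30.4, away from the rest at 13.8 to 16.4. Levels below are CPM, the deposited counts divided by TMM-scaled library size, listed for replicates 1, 2 and 3 of each group. Changes are log2 fold changes of shOpa1 over shControl from edgeR's quasi-likelihood test with Benjamini-Hochberg adjustment over all tested genes, where an adjusted p under 0.05 counts as a call. They are printed with their standard error after the sign ±, in brackets after the levels or in the sentence itself.

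Of the 47 genes, 27 were higher and 2 were lower in shOpa1, and 18 did not pass. Among all 16562 tested genes, 18.9% were called higher and 20.0% lower. The median log2 fold change of the 47 was 0.51, beside -0.009 for all tested genes. All 3 shOpa1 libraries lay above all 3 shControl libraries for 32 of the 47, and below them for 2, where the shares over all tested genes were 25.8% and 26.0%. A called rise of at least 2-fold was seen for 8 of the 47 (Cdt1, Chaf1b, E2f1, Mcm2, Mcm4, Mcm5, Mcm6 and Prim1), beside 3.14% of all tested genes. With the replicate number as a block, 33 were higher and 2 lower, against 28.8% and 30.7% of all tested genes. The block added Orc2, Orc3, Rfc3, Pold2, Pole and Pole2 and took no call away. The authors' deposited table calls 27 of the 47 higher and 2 lower, where 20.2% and 20.7% of the 19398 genes with an adjusted p were called. That table calls Orc2 in place of Fen1 and gives the same call for the other 45.

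**Figure D1:**
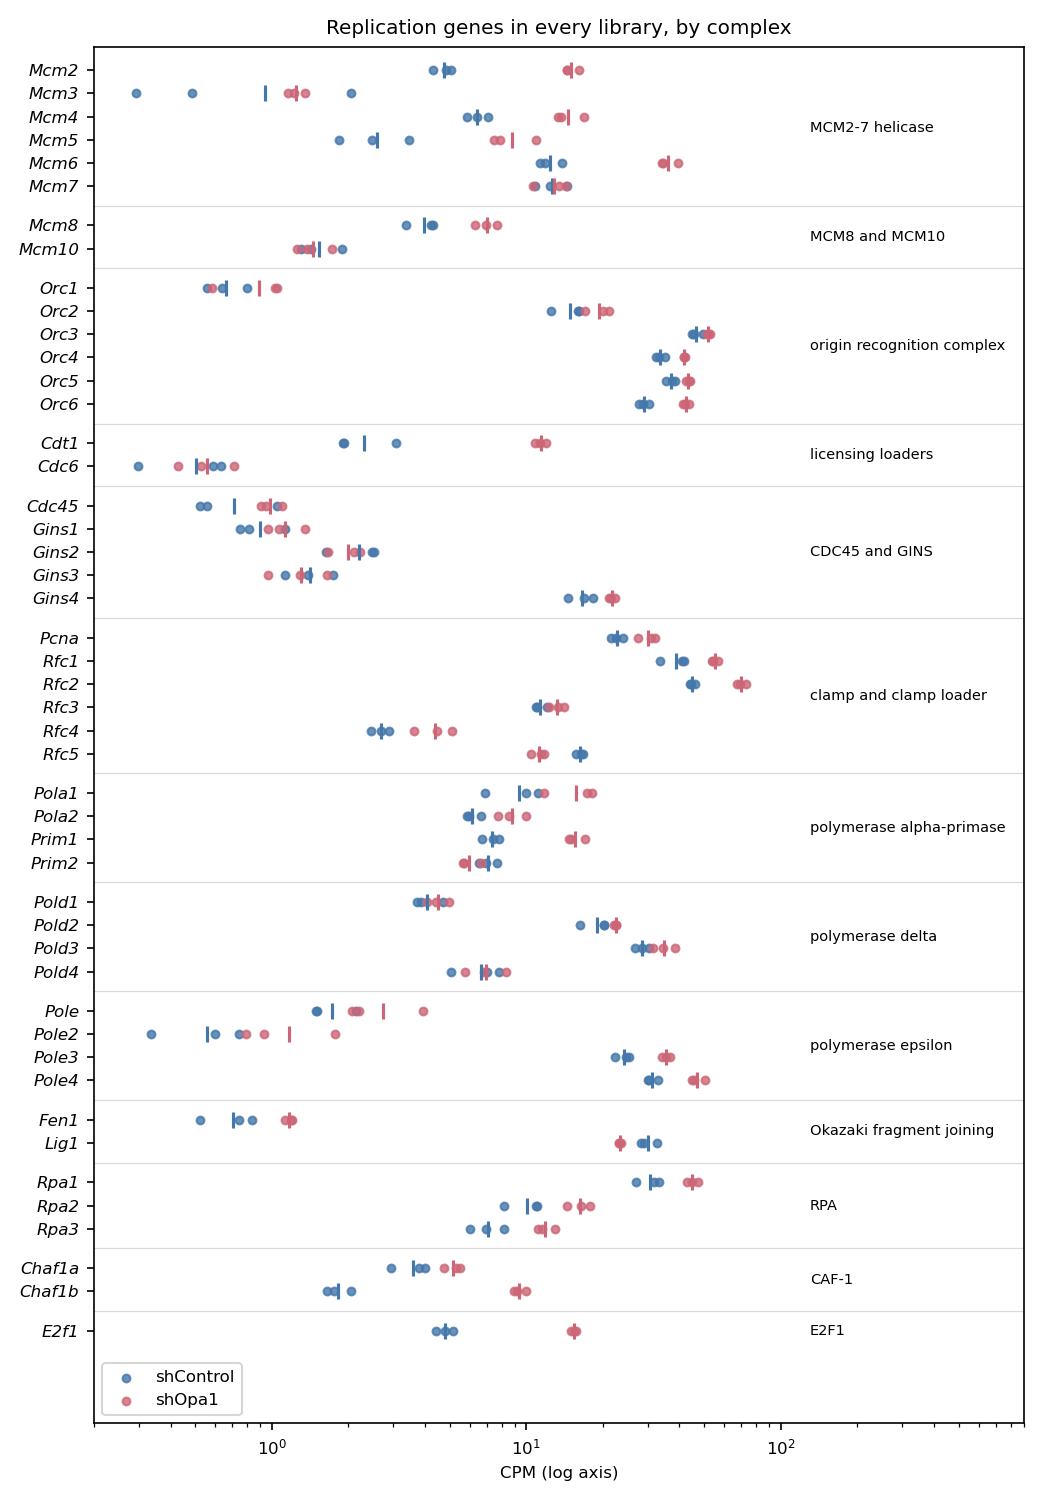
Level of each of the 47 replication genes in CPM (log axis) in the 3 shControl (blue) and 3 shOpa1 (red) libraries, grouped by complex, with a tick at each group mean. Cdt1 and Chaf1b show the widest gaps between groups, and Rfc5 and Lig1 are the 2 genes whose shOpa1 libraries all lie below shControl.

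The helicase subunits did not move together. Mcm2, Mcm4, Mcm5 and Mcm6 rose between 2.27-fold and 3.38-fold, while Mcm3 and Mcm7, subunits of the same ring, did not pass. Mcm2 had 4.32, 4.86 and 5.08 CPM in shControl and 14.504, 14.46 and 16.1 CPM in shOpa1, a log2 fold change of 1.66 ± 0.11, adjusted p = 9.2e-05. For Mcm4 the levels were 6.41, 5.83 and 7.05 CPM in shControl and 13.7, 13.3 and 16.8 CPM in shOpa1, a change of 1.18 ± 0.14, adjusted p = 0.000696. In both genes every shOpa1 library lay well above every shControl library. Mcm5 had 2.47, 1.83 and 3.45 CPM in shControl and 7.86, 7.45 and 10.9 CPM in shOpa1 (log2 fold change 1.76 ± 0.26, adjusted p = 0.00208). Mcm6, the ring's most abundant transcript per length in shOpa1, had 11.3, 11.9 and 13.9 CPM in shControl and 34.2, 34.5 and 39.4 CPM in shOpa1 (1.54 ± 0.11, adjusted p = 9.7e-05). Neither gene had an shOpa1 library within reach of the shControl range.

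Mcm7 had 10.9, 12.4 and 14.46 CPM in shControl and 10.6, 13.5 and 14.3 CPM in shOpa1, a log2 fold change of 0.025 ± 0.15, adjusted p = 0.913, and both groups covered nearly the same range. Mcm7 shares 12.6% of its exon bases with Ap4m1 and Cops6 on the other strand and with 2 microRNA genes inside it. Mcm3 had 0.293, 0.486 and 2.04 CPM in shControl and 1.35, 1.23 and 1.16 CPM in shOpa1, and here a single library decided the result. shControl replicate 3 was the highest of the 6 libraries, while the other 2 shControl libraries lay below every shOpa1 library. The log2 fold change was 0.39 ± 0.63, adjusted p = 0.66 with all 6 libraries, 1.65 (adjusted p = 0.00839) without shControl replicate 3, and -0.022 without shControl replicate 1. With pairs 1 and 2 alone it was 1.71 (adjusted p = 0.00207). MCM2-7 therefore counted 4 of 6 subunits higher with all libraries and 5 of 6 without shControl replicate 3.

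Per kilobase of exon, a rough scale for comparing genes because it sums all annotated exons, the order of the ring's transcripts differed between groups. These levels are CPM per kilobase, mean ± SD over the 3 libraries of a group, here and below. In shControl, Mcm7 (2.84 ± 0.408) and Mcm6 (2.65 ± 0.287) were highest and did not differ beyond their SDs, followed by Mcm4 (1.79 ± 0.169). Mcm2 (0.683 ± 0.056) and Mcm5 (0.647 ± 0.204) came next, again within their SDs, and Mcm3 (0.25 ± 0.255) was lowest. In shOpa1, Mcm6 stood first at 7.72 ± 0.625, then Mcm4 at 4.07 ± 0.539 and Mcm7 at 2.89 ± 0.442. Mcm5 (2.19 ± 0.478) and Mcm2 (2.16 ± 0.138) were alike within their SDs, and Mcm3 stayed last at 0.332 ± 0.026. The 6 subunits enter the ring in equal number, yet the highest mean level was 11.4 times the lowest in shControl and 23.2 times in shOpa1. The shControl ratio rests on Mcm3 in replicate 3, and without that library it was 25.3.

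Mcm8 and Mcm10 are the other members with an Mcm symbol. Mcm8, which works with MCM9 in homologous recombination, rose, and Mcm10, a factor that helps start the helicase, did not pass. Mcm9, read with the other licensing genes below, was lower (-0.65 ± 0.20, adjusted p = 0.0349). That list held 2 genes called lower with all libraries, and 1 without shControl replicate 1 or 2 or shOpa1 replicate 2 or 3. Mcm9 shares 19.2% of its exon bases with Asf1a on the other strand. Mcm8 had 4.23, 3.36 and 4.3 CPM in shControl and 7.7, 6.95 and 6.3 CPM in shOpa1 (0.82 ± 0.16, adjusted p = 0.00572). Mcm10 had 1.3, 1.42 and 1.89 CPM in shControl and 1.26, 1.72 and 1.38 CPM in shOpa1 (-0.083 ± 0.24, adjusted p = 0.81), with overlapping groups.

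The loaders that place the ring on origins split in the same way. Cdt1 had 1.93, 1.91 and 3.08 CPM in shControl and 10.8, 11.4 and 12 CPM in shOpa1, a log2 fold change of 2.30 ± 0.20, adjusted p = 0.000249, or 4.93-fold. It was the second largest change among the 47, with the lowest shOpa1 library more than 3 times the highest shControl library. Cdc6, the ATPase that works beside it, had 0.587, 0.299 and 0.63 CPM in shControl and 0.709, 0.526 and 0.428 CPM in shOpa1 (0.13 ± 0.37, adjusted p = 0.803), and its groups overlapped at a level where a library held as few as 8 counts. Without shControl replicate 2 or shOpa1 replicate 1 the Cdc6 estimate was -0.14 and -0.082.

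The promoters of these genes are shown because E2F factors bind the words TTTCCCGC, TTTCGCGC, TTTGCCGC and TTTGGCGC, and licensing genes are textbook E2F targets. Windows from 250 bases before to 50 bases after the annotated start (RefSeq, GRCm38.p6) were on hand for 40 of the 47 genes and were searched on both strands. Capitals mark the words, which overlap each other in Mcm5 and in the first run of Mcm6, and stretches read 5′ to 3′ along the gene's strand.
Mcm5, higher, chr8:75109329-75109388, plus strand: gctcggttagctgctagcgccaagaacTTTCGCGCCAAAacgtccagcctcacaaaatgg
Mcm6, higher, chr1:128359736-128359845, minus strand: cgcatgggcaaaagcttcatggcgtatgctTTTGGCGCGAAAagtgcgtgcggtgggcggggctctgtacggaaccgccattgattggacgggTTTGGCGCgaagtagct
Cdt1, higher, chr8:122568035-122568064, plus strand: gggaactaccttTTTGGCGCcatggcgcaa
Mcm7, did not pass, chr5:138172014-138172073, minus strand: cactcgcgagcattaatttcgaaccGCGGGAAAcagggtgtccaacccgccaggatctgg
Mcm3, did not pass, chr1:20820265-20820294, minus strand: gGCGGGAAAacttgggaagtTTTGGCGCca
Mcm2, higher, no word in its window, chr6:88898781-88898890, minus strand: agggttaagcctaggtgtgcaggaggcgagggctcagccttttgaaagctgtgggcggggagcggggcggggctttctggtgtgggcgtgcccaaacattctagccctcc
Chaf1b, higher, no word in its window, chr16:93883791-93883900, plus strand: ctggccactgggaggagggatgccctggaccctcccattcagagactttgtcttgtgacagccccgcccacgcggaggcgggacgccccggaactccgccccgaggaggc

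An E2F word was present in the window of 17 of the 40 genes (42.5%), against 4.503% of 11747 tested genes with a window and 2.26% of all 32851 windows. The word did not follow the changes. It was present for 7 of 24 genes called higher (29.2%), 9 of 14 that did not pass (64.3%) and 1 of the 2 called lower, which is Lig1. Genes with a word had a median change of 0.39 (17 genes) and genes without one of 0.53 (23 genes). Mcm2, Chaf1b, E2f1 and Prim1, which rose at least 2-fold, had no word in their windows, while Mcm3, Mcm7, Cdc6, Orc1 and Gins3, which did not pass, had at least 1. A shorter 7-letter form without the first T, tried after the first result was known, was present for 27 of the 40 genes (67.5%) and 18.96% of tested genes. It was found for 17 of 24 genes called higher (70.8%) and 9 of 14 that did not pass (64.3%). Chaf1b and Prim1 held this shorter form, and Mcm2 and E2f1 held neither form. The E2f1 and Cdc6 windows each lay inside the gene model used for counting, so sequence upstream of that model was not searched. The Mcm7 window that held its words lay inside its gene model too. Of 23 words in all, 13 began before the start site. A match is a string of letters in this window and does not show binding.

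**Figure D2:**
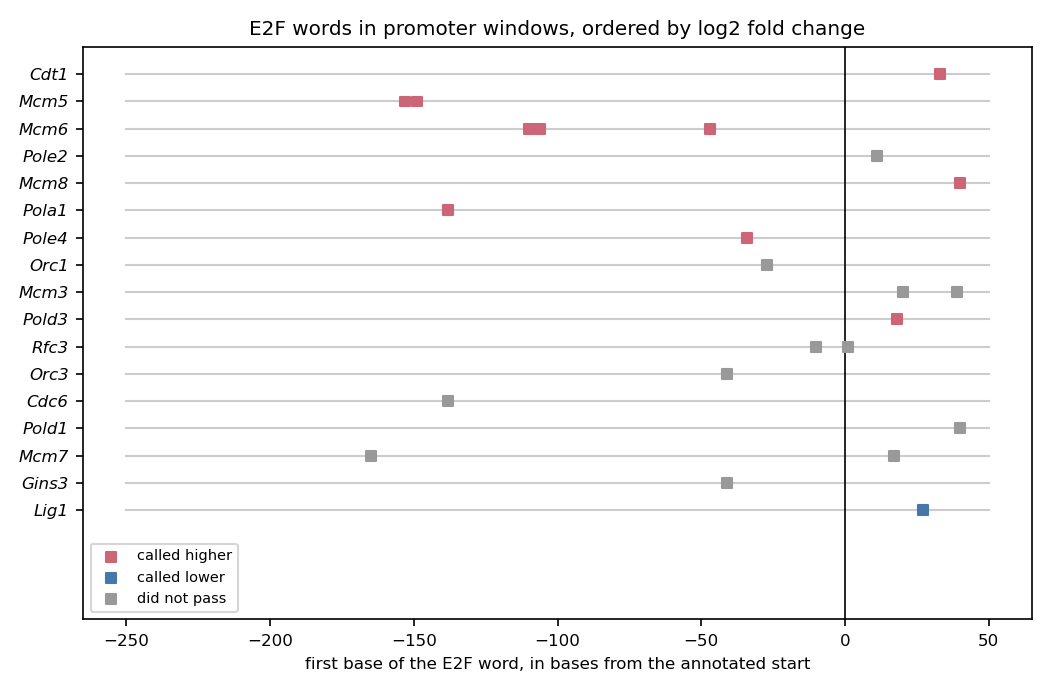
Position of each 8-letter E2F word in the promoter windows of the 17 genes that hold one, in bases from the annotated start (black line), ordered from the highest log2 fold change at the top. Genes called higher, called lower and not passing are all present, from Cdt1 (2.30) to Lig1 (-0.37).

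In the origin recognition complex, the 6 subunits had log2 fold changes between 0.16 and 0.55, 3 of them called, with a median of 0.35. Orc4 had 35.1, 32.5 and 33.1 CPM in shControl and 41.6, 41.9 and 41.6 CPM in shOpa1 (0.31 ± 0.062, adjusted p = 0.00679). Orc5 had 35.5, 38.3 and 37.4 CPM in shControl and 42.3, 44 and 43.8 CPM in shOpa1 (0.23 ± 0.063, adjusted p = 0.0249). Orc6, the smallest subunit, had 30.4, 27.7 and 28.7 CPM in shControl and 43.5, 42.2 and 41.4 CPM in shOpa1 (0.55 ± 0.067, adjusted p = 0.000892). None of these 3 subunits had overlapping groups, and Orc6 was the most abundant of the complex per length, at 11.7 ± 0.546 in shControl.

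Orc1, the subunit whose level rises and falls with the cell cycle in human cells, was the least abundant at 0.19 ± 0.035 per kilobase in shControl. It had 0.796, 0.635 and 0.556 CPM in shControl and 1.03, 1.05 and 0.581 CPM in shOpa1 (0.42 ± 0.31, adjusted p = 0.326). Orc2 at 0.38 (adjusted p = 0.0577) and Orc3 at 0.16 (adjusted p = 0.0948) missed the threshold and passed with the replicate block (adjusted p = 0.000727 and 0.0238), which made 5 of 6 subunits higher. Orc2 shares 29.8% of its exon bases with Nif3l1 on the other strand. Leaving out any shControl library (adjusted p = 0.101, 0.0548 and 0.0504 in turn) or shOpa1 replicate 1 or 2 (0.0662 and 0.093) ended the Orc5 call. It was also lost without the low-count filter (adjusted p = 0.0793). Without any 1 library, 2 to 4 of the 6 subunits were called higher.

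Among CDC45 and the GINS subunits, which make the helicase active, only Gins4 rose. Gins4 had 18.2, 16.9 and 14.6 CPM in shControl and 21.6, 22.3 and 21.1 CPM in shOpa1 (0.39 ± 0.10, adjusted p = 0.0198), and per kilobase it stood at 12.3 ± 1.34 in shControl, far above Gins1 (0.593 ± 0.135), Gins2 (0.539 ± 0.121) and Gins3 (0.524 ± 0.113). Cdc45 had 1.05, 0.523 and 0.556 CPM in shControl and 1.1, 0.905 and 0.948 CPM in shOpa1 (0.48 ± 0.32, adjusted p = 0.273), with shControl replicate 1 inside the shOpa1 range. Gins1, Gins2 and Gins3 had log2 fold changes of 0.33, -0.15 and -0.13 with overlapping groups. Gins2 shares 67.3% of its exon bases with Gse1 on the other strand, and Gins3 turned to 0.044 without shControl replicate 3 and 0.051 without shOpa1 replicate 2. Leaving out shControl replicate 2 (adjusted p = 0.0605) or shOpa1 replicate 1 or 2 (0.0596 and 0.0745) ended the Gins4 call and left none of these 5 genes called.

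**Figure D3:**
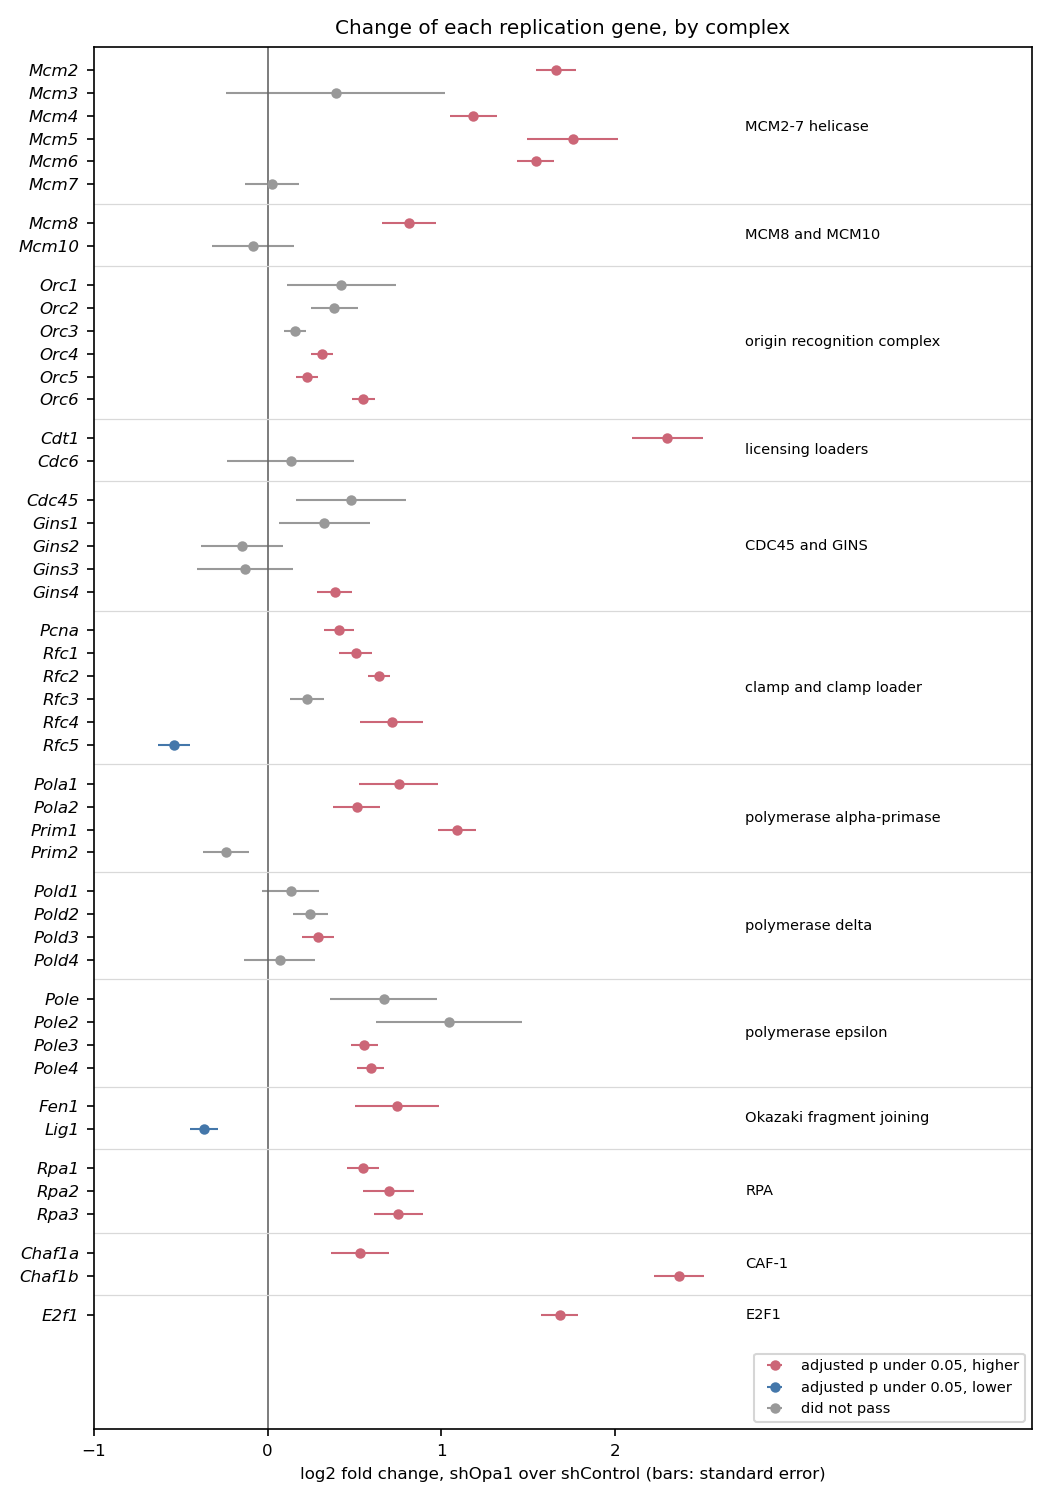
Log2 fold change of shOpa1 over shControl for each of the 47 genes, with its standard error, coloured by whether the adjusted p was under 0.05. Within MCM2-7, the loaders, the clamp loader and the primase, called and uncalled subunits stand side by side.

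The clamp and 3 of the 5 loader subunits rose, while Rfc5 fell. Pcna had 24.1, 22.5 and 21.6 CPM in shControl and 31.9, 31 and 27.5 CPM in shOpa1 (0.41 ± 0.088, adjusted p = 0.00903). Rfc1, the large subunit found only in the replicative loader, had 41, 41.7 and 33.4 CPM in shControl and 56.9, 53.9 and 54.4 CPM in shOpa1 (0.51 ± 0.095, adjusted p = 0.00517). Rfc2 had 46.2, 43.8 and 44.2 CPM in shControl and 67.1, 69 and 73 CPM in shOpa1 (0.64 ± 0.064, adjusted p = 0.000392). The groups were apart in each of these genes, and in shOpa1 Rfc2 had the highest mean CPM of the 47. Rfc4 had 2.89, 2.69 and 2.45 CPM in shControl and 5.12, 4.44 and 3.61 CPM in shOpa1 (0.71 ± 0.18, adjusted p = 0.019). Rfc3 had 11, 10.9 and 12 CPM in shControl and 13.3, 14 and 12.3 CPM in shOpa1 (0.23 ± 0.099, adjusted p = 0.109) and passed with the block (adjusted p = 0.0499). Rfc5 went the other way, with 16.7, 15.7 and 16.4 CPM in shControl and 10.4, 11.4 and 11.7 CPM in shOpa1 (-0.54 ± 0.091, adjusted p = 0.00338), and every shOpa1 library lay below every shControl library.

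The small subunits RFC2 to RFC5 form 1 complex in equal number and also serve the alternative loaders built on RAD17, CHTF18 and ATAD5. Rfc5 stood at 3.48 ± 0.108 per kilobase in shControl and 2.4 ± 0.144 in shOpa1, beside 7.1 ± 0.199 and 11.1 ± 0.48 for Rfc2. Rfc2, Rfc4 and Rfc5 share 15.1%, 12.7% and 10.7% of their exon bases with genes on the other strand. Rfc4 missed the threshold when shControl replicate 2 or 3 (adjusted p = 0.0625 and 0.0506) or shOpa1 replicate 1 or 2 (0.0741 and 0.0619) was left out. The Rfc5 call held in all 14 alternatives run, with an adjusted p of at most 0.0176. Rfc5 was also the 1 gene among 46 with a usable 3′ UTR that carries the word GAAACTA, in 2 copies, against 9.67% of 13863 tested genes. That word had been picked from the fold changes of these libraries, so its presence in a gene that fell is no independent evidence.

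Polymerase alpha-primase, which starts each new strand, had 3 of 4 subunits higher. Prim1, the catalytic primase, had 7.84, 6.73 and 7.42 CPM in shControl and 15, 14.7 and 17 CPM in shOpa1 (1.09 ± 0.11, adjusted p = 0.000432). Prim2, its large partner, had 6.96, 7.66 and 6.53 CPM in shControl and 5.67, 6.63 and 5.62 CPM in shOpa1 (-0.24 ± 0.13, adjusted p = 0.194), with overlapping groups, and was not above its control in any pair of same-numbered libraries. The primase subunits therefore had estimates of opposite sign, of which the Prim1 rise passed. Pola1, the catalytic polymerase subunit, had 9.98, 11.1 and 6.86 CPM in shControl and 17.3, 18.1 and 11.8 CPM in shOpa1 (0.75 ± 0.23, adjusted p = 0.0354). Pola2 had 6.62, 5.94 and 5.86 CPM in shControl and 9.96, 8.59 and 7.73 CPM in shOpa1 (0.51 ± 0.14, adjusted p = 0.0212). For Pola1 both libraries numbered 3 were the lowest of their groups, and with the block its adjusted p was 1.33e-05. Pola1 missed the threshold when shControl replicate 1 or 3 (adjusted p = 0.0776 and 0.0656) or shOpa1 replicate 1 or 2 (0.107 and 0.115) was left out. Pola2 did so for shControl replicate 2 or 3 (0.0778 and 0.0535) and for shOpa1 replicate 1 or 2 (0.0825 and 0.0619), so between 1 and 3 of the 4 subunits were called when 1 library was left out.

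Of the extending polymerases, the delta complex changed by a median of 0.19 and the epsilon complex by 0.63. Pold3, an accessory subunit of delta, had 28.4, 26.8 and 30.3 CPM in shControl and 34.6, 31.5 and 38.5 CPM in shOpa1 (0.29 ± 0.094, adjusted p = 0.0449). The catalytic subunit Pold1 had 3.86, 4.71 and 3.71 CPM in shControl and 4.06, 4.41 and 4.98 CPM in shOpa1 (0.13 ± 0.16, adjusted p = 0.563) and Pold4 7.8, 7.03 and 5.08 CPM in shControl and 8.32, 6.8 and 5.75 CPM in shOpa1 (0.069 ± 0.21, adjusted p = 0.818), both with overlapping groups. Delta, the polymerase of the lagging strand, had its called change in an accessory subunit and none in the catalytic one. Pold2 had a log2 fold change of 0.25 (adjusted p = 0.0957), and 0.25 (adjusted p = 0.014) with the block. Leaving out shControl replicate 1 or 2 (adjusted p = 0.118 and 0.147) or shOpa1 replicate 1 or 3 (0.109 and 0.102) ended the Pold3 call and left no delta subunit called. Pold4 turned to -0.092 without shControl replicate 3 and -0.082 without shOpa1 replicate 1. In the epsilon complex the histone-fold subunits rose. Pole3 had 25.3, 24.7 and 22.4 CPM in shControl and 35.5, 36.7 and 34.1 CPM in shOpa1 (0.56 ± 0.077, adjusted p = 0.00152). Pole4 had 30.3, 30.1 and 32.9 CPM in shControl and 44.9, 45.4 and 50.3 CPM in shOpa1 (0.59 ± 0.075, adjusted p = 0.00106). Their groups were far apart relative to the spread, and both calls held in all 14 alternatives.

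The catalytic subunit Pole had 1.51, 1.49 and 2.15 CPM in shControl and 2.19, 2.07 and 3.94 CPM in shOpa1 (0.67 ± 0.31, adjusted p = 0.128). Pole2 had 0.335, 0.598 and 0.742 CPM in shControl and 0.935, 0.789 and 1.77 CPM in shOpa1 (1.04 ± 0.42, adjusted p = 0.0874). In both genes shOpa1 replicate 3 was the highest library, and both passed with the block (adjusted p = 0.0069 and 0.00773), which made all 4 epsilon subunits higher. Per kilobase, Pole3 (11.8 ± 0.758) and Pole4 (12.4 ± 0.613) were far more abundant in shControl than Pole (0.154 ± 0.034) and Pole2 (0.194 ± 0.072). POLE3 and its histone-fold kin are also known from chromatin complexes outside the polymerase.

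The 2 genes that finish Okazaki fragments moved in opposite directions. Lig1, the ligase that seals them, had 29.1, 28.3 and 32.7 CPM in shControl and 23.6, 23.1 and 23.1 CPM in shOpa1 (-0.37 ± 0.081, adjusted p = 0.0102), and its shOpa1 libraries were tightly grouped below shControl. Fen1, the flap endonuclease that acts just before it, had 0.838, 0.523 and 0.742 CPM in shControl and 1.19, 1.2 and 1.13 CPM in shOpa1 (0.74 ± 0.24, adjusted p = 0.0462), at 14 to 41 counts per library. Fen1 shares 84.2% of its exon bases with Tmem258 and Gm10143 on the other strand, and reads of the 2 strands cannot be told apart because the counting header gives no strand option. Its call was lost without any 1 of the 6 libraries (adjusted p between 0.0606 and 0.142), with DESeq2 (0.138), without the low-count filter (0.114) and in pairs 1 and 2 (0.0515). The Lig1 call held in all 14 alternatives.

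All 3 subunits of RPA, the single-strand binding protein, rose by similar amounts. Rpa1 had 27, 33.1 and 31.8 CPM in shControl and 42.7, 44.7 and 47.1 CPM in shOpa1 (0.55 ± 0.093, adjusted p = 0.00339). Rpa2 had 10.9, 11 and 8.19 CPM in shControl and 16.5, 17.8 and 14.46 CPM in shOpa1 (0.70 ± 0.15, adjusted p = 0.00836). Rpa3 had 8.17, 6.02 and 6.93 CPM in shControl and 13, 11.507 and 11.1 CPM in shOpa1 (0.75 ± 0.14, adjusted p = 0.00534). In each of them the lowest shOpa1 library exceeded the highest shControl library, and every call held in all 14 alternatives. As the complexes are listed here, RPA was the 1 with more than 2 genes in which every gene was called in the same direction. CAF-1 was listed with 2 genes, both called higher. Its other subunit, Rbbp4, was read with the histone chaperones and was also higher (0.20 ± 0.055, adjusted p = 0.0223).

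Chaf1b, the middle subunit of the chromatin assembly factor CAF-1, had the largest change of the 47. It had 1.76, 1.64 and 2.04 CPM in shControl and 8.96, 9.96 and 9.23 CPM in shOpa1, a log2 fold change of 2.37 ± 0.14, adjusted p = 6.72e-05, or 5.16-fold. Chaf1a, the large subunit, had 3.77, 2.95 and 4 CPM in shControl and 5.48, 4.73 and 5.32 CPM in shOpa1 (0.53 ± 0.17, adjusted p = 0.0392). Per kilobase, both started alike in shControl (0.404 ± 0.062 for Chaf1a and 0.388 ± 0.043 for Chaf1b) and stood apart in shOpa1 (0.585 ± 0.044 and 2 ± 0.11). Chaf1a shares 52.5% of its exon bases with Ubxn6 on the other strand. Leaving out shControl replicate 1 or 2 (adjusted p = 0.0816 and 0.116) or any shOpa1 library (0.122, 0.0669 and 0.0733 in turn) ended its call. The Chaf1a call was also lost without the low-count filter (adjusted p = 0.0604). E2f1 had 4.78, 4.41 and 5.15 CPM in shControl and 15.7, 15.4 and 14.9 CPM in shOpa1, a log2 fold change of 1.68 ± 0.11, adjusted p = 7.21e-05 or 3.21-fold, with libraries tightly grouped on each side of the gap.

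Dividing cells express these genes together with genes of mitosis, so a list of 20 mitosis genes was read beside them. Of the 16 that were tested, 0 were higher and 1, Ccnb2 (cyclin B2), was lower at -0.63 ± 0.19, adjusted p = 0.0356, a call lost without any 1 library other than shOpa1 replicate 3. Summed over the 20 genes, the level was 23.3, 27.1 and 40.5 CPM in shControl and 29.4, 25.5 and 24.5 CPM in shOpa1, while the sum over the 47 replication genes was 611, 595 and 599 CPM in shControl and 844, 843 and 855 CPM in shOpa1. shControl replicate 3 was the highest library for mitosis and not for replication. The genes that set it apart, chosen after their values were seen, were Mki67 (0.21, 0.374 and 2.97 CPM in shControl and 0.322, 0.263 and 0.306 CPM in shOpa1), Top2a (0.419, 0.112 and 3.67 CPM in shControl and 0.548, 0.438 and 0.856 CPM in shOpa1) and Cdk1 (0.126, 0.187 and 1.22 CPM in shControl and 0.387, 0.204 and 0.459 CPM in shOpa1). Without that library, 0 of 17 tested mitosis genes were called in either direction and their median log2 fold change was 0.17, against -0.18 with it. For the 47 genes, 23 were then higher and 2 lower, with a median of 0.48. Over all genes, 2889 were then called higher, against 3130 with all 6 libraries. At an unadjusted p under 0.05, 0 of the 16 mitosis genes were higher and 1 was lower with all 6 libraries.

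**Figure D4:**
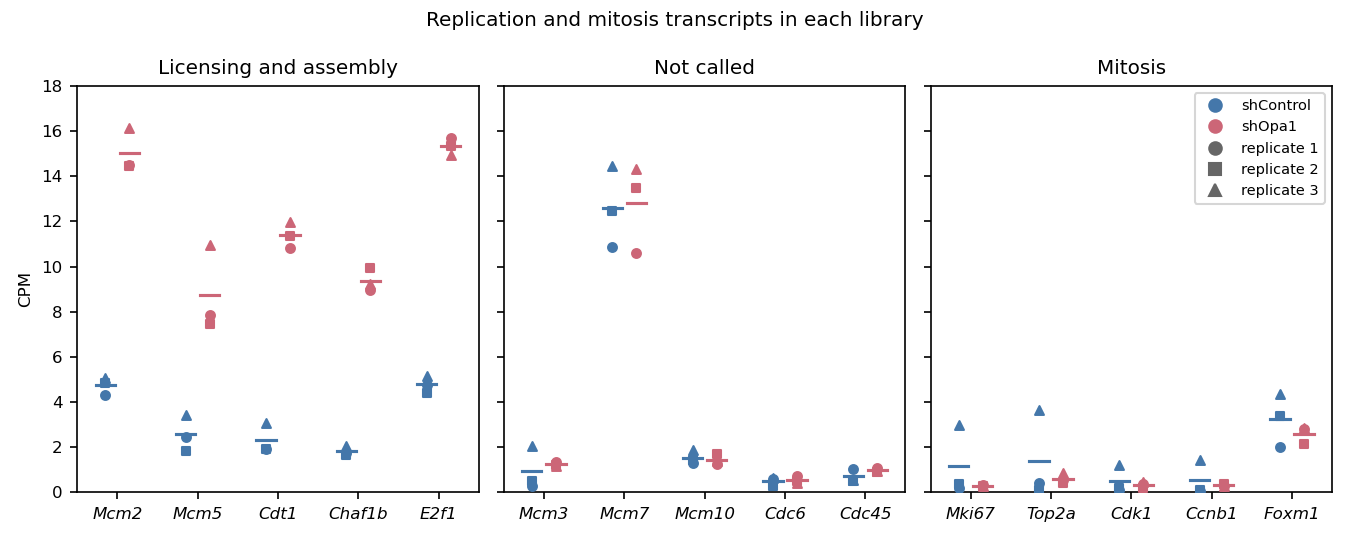
CPM of 5 called replication genes, 5 replication genes that did not pass and 5 mitosis genes in each library (symbols mark replicates, bars group means). The called genes separate the groups in every replicate, while the raised Mki67, Top2a, Cdk1 and Ccnb1 values belong to shControl replicate 3.

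Lists of neighbouring genes are read beside the same shares of all tested genes, 18.9% called higher and 20.0% lower. Other genes of licensing and origin firing held 6 of 15 called higher and 2 lower, with a median of 0.30. Mtbp, a partner of the firing factor TICRR, had 1.63, 1.72 and 1.56 CPM in shControl and 5.83, 4.96 and 4.83 CPM in shOpa1 (1.67 ± 0.16, adjusted p = 0.000353). Recql4, a helicase of the RecQ family needed for firing, had 3.4, 2.95 and 3.56 CPM in shControl and 8.28, 8.64 and 10.5 CPM in shOpa1 (1.47 ± 0.15, adjusted p = 0.000452). Wdhd1, which ties polymerase alpha to the helicase, had 5.07, 6.2 and 6.19 CPM in shControl and 10.3, 11.2 and 15.7 CPM in shOpa1 (1.09 ± 0.19, adjusted p = 0.00361). All 3 were higher in every shOpa1 library than in any shControl library. Ddb1, part of the ubiquitin ligase that removes CDT1 protein, was lower at -0.70 ± 0.075, adjusted p = 0.000521. Of the other genes of that ligase in the list, Dtl was higher at 1.01 ± 0.23, adjusted p = 0.0114. Cul4a did not pass at 0.16 ± 0.077, adjusted p = 0.146. Gmnn, the inhibitor of CDT1, did not pass at 0.41 ± 0.35, adjusted p = 0.399. Leaving out shControl replicate 1 or 2 brought the number called higher to 4, and the number called lower lay between 1 and 3 when any 1 library was left out.

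At the fork, 4 of 15 tested genes were higher and 1 lower (6 and 2 with the block), with a median of 0.20. Dna2, a nuclease that trims long flaps, changed by 1.49 ± 0.15, adjusted p = 0.000429, Atad5, which unloads PCNA, by 0.96 ± 0.12, adjusted p = 0.00105, and Tipin, a fork protection factor, by 0.77 ± 0.13, adjusted p = 0.00322. Rnaseh2b, a subunit of the enzyme that removes ribonucleotides, fell by 0.68 (SE 0.16, adjusted p = 0.0143), a call lost without shControl replicate 1 and without shOpa1 replicate 2. In the replication checkpoint list 5 of 11 were higher and 1 lower. Chek2 (1.24 ± 0.25, adjusted p = 0.00666), Chek1 (0.85 ± 0.18, adjusted p = 0.00859) and Atm (0.48 ± 0.12, adjusted p = 0.0183), kinases that answer damaged or stalled DNA, were higher, and Hus1, part of a clamp related to PCNA, was lower (-0.96 ± 0.15, adjusted p = 0.00221). Without shControl replicate 1 or shOpa1 replicate 2 the checkpoint count was 2 higher, and without shOpa1 replicate 1 it was 3.

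Of the genes that supply deoxynucleotides, 2 of the 9 read here were higher and 1 lower (4 and 2 with the block), beside 18.9% and 20.0% of all tested genes. Dtymk, thymidylate kinase, changed by 0.82 ± 0.077, adjusted p = 0.000306 and Dut by 0.24 ± 0.076, adjusted p = 0.0404, while Dctd was lower (-0.84 ± 0.21, adjusted p = 0.0184). The count of higher genes was 1 without any of the libraries except shOpa1 replicate 3, where it was 3, and the Dctd call was lost without shControl replicate 2 and without shOpa1 replicate 1 or 2. Among other histone chaperones 4 of 13 were higher and 2 lower. Asf1b, which hands histones to CAF-1, had 1.09, 0.934 and 0.705 CPM in shControl and 3.58, 2.39 and 3.24 CPM in shOpa1 (1.75 ± 0.25, adjusted p = 0.0018), while Ssrp1, Nasp and Atrx had 0.65 ± 0.062, adjusted p = 0.000328, 0.46 ± 0.07, adjusted p = 0.00222 and -0.33 ± 0.065, adjusted p = 0.00628. Other DNA polymerases and ligases had 4 of 14 higher and 2 lower and a median of 0.056, with Xrcc1 at 0.43 ± 0.064, adjusted p = 0.00211, Polk at 0.84 ± 0.13, adjusted p = 0.00261, Rev1 at 0.52 ± 0.09, adjusted p = 0.00368 and Mad2l2 at -0.70 ± 0.12, adjusted p = 0.00406.

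Of the E2F and DREAM regulators that govern this program, 5 of 24 were higher and 5 lower, near the 18.9% and 20.0% of all tested genes, with a median of -0.082. E2f6, a repressive E2F, had 24.1, 26.2 and 21.1 CPM in shControl and 49.2, 51.4 and 49.2 CPM in shOpa1 (1.07 ± 0.089, adjusted p = 0.000199). Cdc25a, a phosphatase that activates cyclin-dependent kinases, had 10.3, 10.7 and 9.6 CPM in shControl and 21, 21.8 and 17.7 CPM in shOpa1 (0.98 ± 0.11, adjusted p = 0.000632). E2f3 had 28.5, 25.3 and 28.7 CPM in shControl and 15.8, 17.7 and 16.1 CPM in shOpa1 (-0.74 ± 0.09, adjusted p = 0.000897). The rise of E2f1 thus stood beside a fall of E2f3 at levels that did not overlap in either gene. E2f2 also rose (1.62 ± 0.30, adjusted p = 0.00495), at 5 to 27 counts per library. Rb1, which encodes the retinoblastoma protein, was lower (-0.75 ± 0.12, adjusted p = 0.00298). Of its relatives, Rbl2 was lower (-0.45 ± 0.083, adjusted p = 0.00493) and Rbl1 did not pass (0.48 ± 0.26, adjusted p = 0.183). Cdkn1a, the inhibitor p21, had 107, 113 and 144 CPM in shControl and 189, 196 and 197 CPM in shOpa1 (0.68 ± 0.11, adjusted p = 0.00296).

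**Figure D5:**
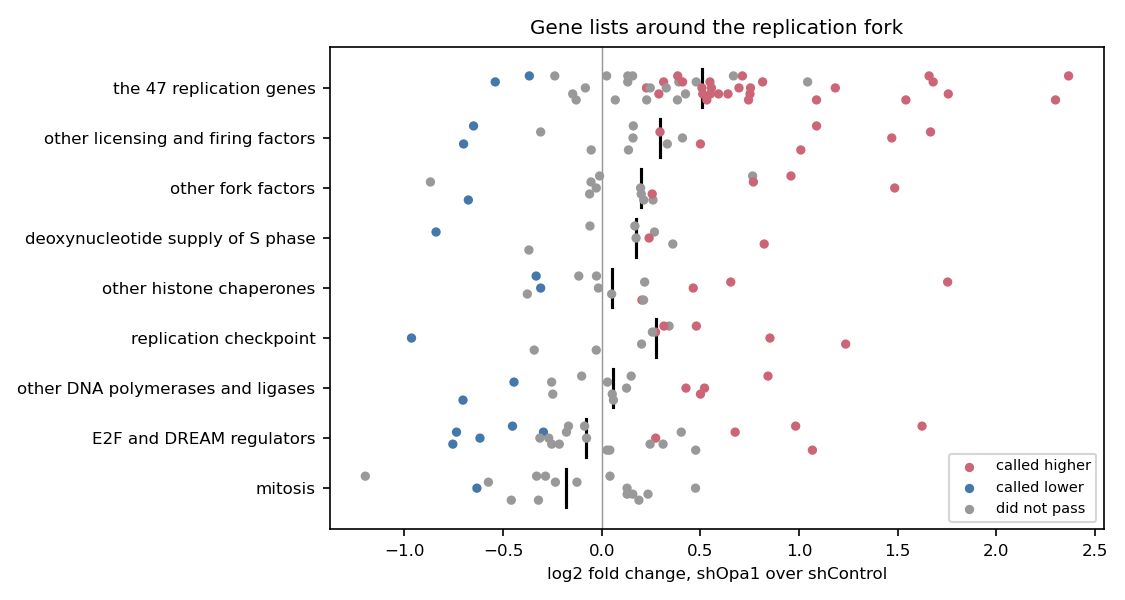
Log2 fold change of every tested gene in the 47 replication genes and in 8 neighbouring lists, with a bar at each median, coloured by call. The replication genes have the highest median (0.51) and the mitosis genes the lowest (-0.18), which without shControl replicate 3 was 0.17 and above that of 3 other lists.

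Markers of the cell types these cultures could hold moved with the same groups, and their part in the results was not tested. In RNA from mixed cultures, fewer cells of a type and less RNA per cell cannot be told apart. All 10 neuronal markers were present, summing to 9391 to 9942 CPM in shControl and 6678 to 6993 CPM in shOpa1, with 6 lower and 1 higher, and 4 to 7 lower when 1 library was left out. With the replicate block 9 neuronal, 7 progenitor and 6 astrocyte markers were lower and 1 of each was higher. Of 10 progenitor markers 4 were lower and 0 higher (with the block Nes was higher at 0.70, adjusted p = 0.0137), and their sum was 169 to 365 CPM in shControl and 90.2 to 191 CPM in shOpa1. Of 7 tested astrocyte markers 3 were lower and 1, Gfap, was higher, with sums of 234 to 361 and 115 to 167 CPM. The Gfap call rested on 18 to 58 counts per library and was lost without any 1 library other than shOpa1 replicate 1. Oligodendrocyte lineage markers had 2 of 7 lower (3 with the block) and sums of 47.1 to 75.5 and 38.4 to 54.8 CPM, with Sox10 at 0 in every shControl library. In each of these 4 lists the shOpa1 sum was below that of the same-numbered shControl library. Microglial markers other than Aif1, which was lower, did not pass the filter, with sums of 5.64 to 8.17 and 3.36 to 4.77 CPM, and P2ry12 was at 0 in 4 of 6 libraries. Without Aif1 the other 7 summed to 0.755, 0.897 and 0.371 CPM in shControl and 1.29, 1.11 and 0.55 CPM in shOpa1, higher in each pair. Endothelial markers had 1 of 3 lower and sums of 5.31 to 8.38 and 2.64 to 6.17 CPM, with Cldn5 and Cdh5 at or near 0. Fibroblast and mural markers had 0 of 6 called, with sums of 11.55 to 22.9 CPM in shControl and of 55.5, 8.53 and 8.71 CPM in shOpa1. Without shOpa1 replicate 1, the library high in these markers, 19 of the 47 replication genes were higher and 2 lower, with a median of 0.41. Over all genes, 2255 were called higher in that setting, against 3130 with all 6 libraries.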

How the data were processed

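RNA from 6 libraries was sequenced after a TruSeq stranded mRNA preparation, per the labels' protocols. The authors deposited raw counts per gene, made with featureCounts 1.6.0 on Ensembl release 99 gene models of GRCm38 with no strand option, per the file headers. HISAT2, DESeq2 and mm10 are named, without versions, in the submitters' processing notes. The authors' deposited comparison gives a log2 fold change, its error, a score (fold change over error), p-values and a signal of counts divided by size factors, from which only fold changes and adjusted p-values of the members were used.

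Groups and replicate numbers came from the labels. Symbols were paired with 55144 of 55471 identifiers through a reference table, and 0 columns of values lacked a sample. Genes were filtered with filterByExpr, scaled by TMM and tested by robust quasi-likelihood in edgeR 4.0.16 (R 4.3.3), with a single group term and p-values adjusted by Benjamini-Hochberg over 16562 genes at 0.05. Standard errors are the fold change over the square root of F. On simulated data of 16305 genes, 130 of 196 genes changed 2-fold were called (66.3%). Beside these 130 calls stood 16 false ones. The simulated libraries were drawn independently, without the shared deviations of same-numbered libraries. They also held far fewer changed genes than the 6442 called in the real libraries, so the share recovered need not hold there. Deviations from group means correlated at 0.595, 0.608 and 0.714 for libraries of the same number and at most at 0.154 otherwise, so the numbers were taken as pairs, inferred from the data and not stated in the labels.

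Alternatives were RLE and upper quartile scaling, DESeq2 1.42.0, 2 other low-count filters, the replicate block, replicate 3 as a batch term, pairs 1 and 2 alone, and each library left out. The other lists without 1 library and the 7-letter E2F word were added after the data were seen. CPM per kilobase divides by the summed exon length of the gene model. The 47 members and all lists were chosen with earlier results of these data known. Every member may be named, with all libraries for called members, and of each other list up to 4 called genes with the smallest p. A gene of the deoxynucleotide list is not reported here and was left out of its counts. Gmnn, Mki67, Top2a, Cdk1 and Ccnb1 fall outside that rule, as do Nes, Sox10, P2ry12, Cldn5 and Cdh5. The same holds for Mcm9, Dtl, Cul4a, Rbbp4, E2f2, Rb1, Rbl1 and Rbl2, named after their values were seen. Promoter windows are RefSeq's (GRCm38.p6), without 7 of the members, and 3′ UTRs of at least 50 bases are GENCODE M21's. Python 3.11.15, numpy 2.4.6 and pandas 2.3.3 were used.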

Additional observations from a re-analysis of the deposited data

How the results depend on the processing

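Of the 29 genes called, 21 kept their call and direction in all 14 alternatives run, and 8 lost it in at least 1 (Orc5, Gins4, Rfc4, Pola1, Pola2, Pold3, Fen1 and Chaf1a), most often when 1 library was left out, where fewer samples remain. Of the 18 that did not pass, 7 did so in at least 1 alternative. The number called higher was 19 to 25 when 1 library was left out and 25 to 33 otherwise, and the number called lower was 2 throughout. Over all genes, the number called higher was 2168 to 3168 when 1 library was left out, against 3130 with all libraries. With the replicate block, all genes called rose from 6442 to 9851 and those called higher from 3130 to 4770, and beyond the genes and counts named in the report the block changed no call of a member. The members' median log2 fold change of 0.51 was 0.55 with upper quartile scaling, 0.54 in pairs 1 and 2, and 0.41 to 0.57 when 1 library was left out. Estimates that changed sign belonged to genes that did not pass. In pairs 1 and 2, Mcm10 turned to 0.14 and Pold1 to -0.012. When 1 library was left out, Mcm3 ranged from -0.022 to 1.65, Mcm7 from -0.074 to 0.14, Mcm10 from -0.22 to 0.094, Cdc6 from -0.14 to 0.33, Gins3 from -0.34 to 0.051 and Pold4 from -0.092 to 0.20. The cause of these shifts was not tested. Depth limits the 7 members with a mean under 1 CPM in shControl, where a library can hold as few as 7 counts.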
